A study of Mus musculus with 16 samples.

Results

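The glutathione S-transferases (GST) and UDP-glucuronosyltransferases (UGT) attach a water-soluble group to drugs, steroids, bilirubin and reactive lipids. The soluble GST classes (alpha, kappa, mu, omega, pi, theta and zeta) use the tripeptide glutathione, and most UGT enzymes use glucuronic acid carried by UDP. Both families are abundant in hepatocytes, and their conjugates leave the cell through ATP-driven transporters into bile or blood. Members were taken by gene name, as every gene on the array named Gst followed by one of the class letters a, k, m, o, p, t or z, or Ugt, and a number. The rule found 33 genes of 27962 on the array, 19 GST and 14 UGT genes, and each was represented by its probe with the highest mean signal. The protein-coding symbols of these families in the RefSeq gene table numbered 44, of which 11 (Gstp2, Gstp3, Gstt4, Ugt1a2, Ugt1a5, Ugt1a6a, Ugt1a7c, Ugt1a8, Ugt1a10, Ugt2a2 and Ugt2b36) were not analysed here.

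Liver RNA of male C57BL/6 mice aged 3 months was hybridised to 16 single-colour Agilent whole mouse genome arrays, 4 in each of 4 groups. Wild-type mice and mice with a liver GR knockout were each left untreated or given dexamethasone. GR is the glucocorticoid receptor, and dexamethasone is a synthetic hormone that activates it. PBS appears in the titles of the knockout samples, and the written protocol mentions a vehicle for animals whose source name reads no treatment. No source used here gives the dexamethasone dose, route or time, the Cre driver or the deleted stretch. Nothing states outright that replicates were separate mice, so the p-values measure the spread between these samples, which may be technical. All levels are log2 signals relative to the array's 75th percentile, so a level of 0 equals that percentile.

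The signal's 75th percentile was lowest on untreated knockout array 1 (308.7) and untreated wild-type array 4 (401.3), and 523.1 to 692 on the remaining 14. The former also correlated least with its own group across genes (mean r 0.9632, against 0.975 to 0.9803 for the other 3). Slide and group cannot be told apart, because the 4 arrays of a slide came from 1 group. The transcript of the receptor was lower in the knockout livers, at -0.10 to 0.56 against 1.93 to 2.52 in wild type. Hepatocyte markers were on the array for 7 of 8 listed genes, and their summed level lay between 11.58 and 12.29 on all 16 arrays. Of these 7, Tat rose with dexamethasone in wild type (1.06, SE 0.24, limma adjusted p = 0.0103), and Tat and Apoa1 were lower in treated knockout than in treated wild-type livers (-1.46, SE 0.24, adjusted p = 0.000799, and -0.80, SE 0.18, adjusted p = 0.00606). Apoa1 was also lower in untreated knockout livers (-0.88, SE 0.18, adjusted p = 0.02). The part of this in the members' values was not tested. The bile duct marker Cftr was above background on no array. In bulk liver, fewer cells of a type and less RNA per cell cannot be told apart.

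Of the 33 members, 32 were above background on all 16 arrays. Ugt8a, which transfers galactose to ceramide in myelin-forming cells, was above background on 0 of 4 untreated wild-type arrays, 2 of 4 treated wild-type arrays, 3 of 4 untreated knockout arrays and 4 of 4 treated knockout arrays. All 33 passed the filter on dim probes, Ugt8a only through the knockout groups, so its comparisons between genotypes are not read as support. Within a class the members' signals differed widely between probes, and because probes differ in brightness these levels are compared between groups only, never between genes.

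**Figure D1:**
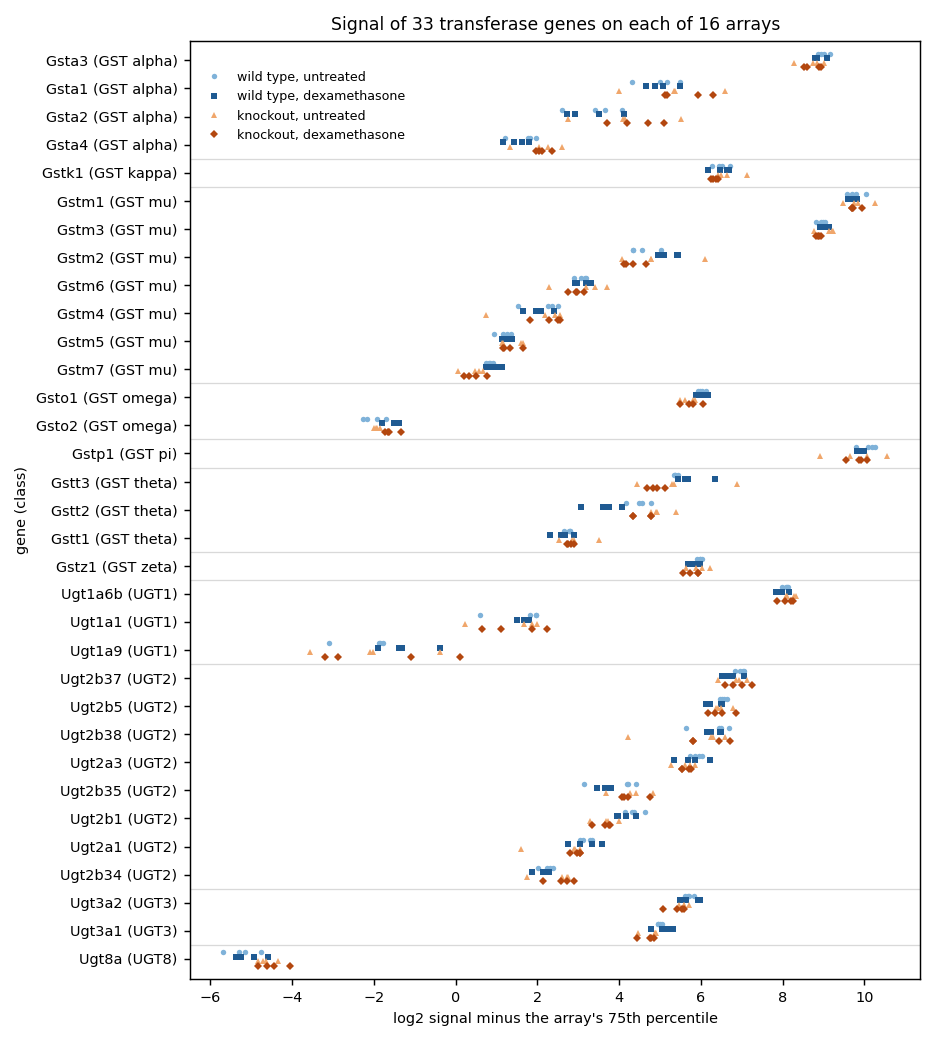
The horizontal axis gives the log2 signal minus the array's 75th percentile and each row is 1 of the 33 members, grouped by class, with 1 point per array and 4 colours and shapes for the 4 groups. The 4 groups lie close together for most members, while Gsta1, Gsta2, Gstt3, Ugt1a9 and Ugt2b38 spread widely within the untreated knockout group.

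The first comparison asked which transferases dexamethasone changed in wild-type liver. Gstt2, a theta class GST that acts on small electrophiles and sulfate esters, fell 1.84-fold, and no other member passed the test. The 1 called member of 33 stood beside 12% of the 18598 genes tested (6.83% called lower). The median absolute change was 0.12 over the members and 0.28 over all genes tested. For 28 of the 33 members the 95% interval of the change lay within -1 and 1 on the log2 scale, a 2-fold change in either direction. The other 5 were Gsta2, Gstm2, Gstt2, Gstt3 and Ugt1a9. Across the members, 14 estimates were above 0 and 19 below, with a median of -0.02 beside -0.03 for all genes.

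Gstt2 was read by 1 probe on chromosome 10 (mm7 chr10:75488112-75488171, minus strand). Its sequence is shown because the clearest difference among the members rests on it.
Gstt2 probe: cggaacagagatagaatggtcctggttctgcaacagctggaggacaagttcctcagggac
The Gstt2 level was 4.5, 4.77, 4.18 and 4.55 on the 4 untreated wild-type arrays and 3.07, 3.61, 3.75 and 4.06 on the 4 treated ones. The treated arrays all lay below the untreated ones. The change was -0.88 (SE 0.21, 95% interval -1.33 to -0.43, limma adjusted p = 0.0138). It ranged from -1.02 to -0.70 when 1 array was left out, and without untreated wild-type array 2 it was no longer called (adjusted p = 0.0528).

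The neighbours of Gstt2 in the same gene cluster did not follow it past the threshold. Gstt1, which acts on halogenated methanes, lies 1 gene away from Gstt2 in the RefSeq order and measured -0.14 (SE 0.18, adjusted p = 0.657). Gstt3 lies next to Gstt1 and measured 0.39 (SE 0.36, adjusted p = 0.539). Gstt3 levels were 5.38, 5.35, 5.36 and 5.44 on untreated and 5.62, 5.45, 5.68 and 6.35 on treated wild-type arrays. The groups did not overlap, but the spread on the untreated knockout arrays (SD 1.02) enters the SE of this fit.

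In the knockout livers no member was called for dexamethasone, and Gsto2 alone had an unadjusted p under 0.05 (0.33, SE 0.15, adjusted p = 0.256). The background in this comparison was 3.6% of the genes tested, and 16.7% had an unadjusted p under 0.05. For 26 of the 33 members the 95% interval lay within the 2-fold bounds. Gstt2 was 4.91, 4.92, 4.79 and 5.39 on untreated and 4.34, 4.77, 4.78 and 4.34 on treated knockout arrays. These groups just failed to overlap, and the change of -0.45 (SE 0.21, 95% interval -0.89 to 0.00) was not called (adjusted p = 0.30). Gsto2, an omega class GST that reduces dehydroascorbate, measured 0.39 in wild type (SE 0.15, adjusted p = 0.101), near its value in the knockout.

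The interaction, the knockout response minus the wild-type response, tests whether the response to dexamethasone differed between genotypes. No member was called, beside 4.54% of the genes tested, and limma gave 1 member with an unadjusted p under 0.05, beside 16.7% of all genes. That member was Gstm2, a mu class GST. The interaction for Gstt2 was 0.43 (SE 0.30, 95% interval -0.20 to 1.07, adjusted p = 0.55), so its fall in wild type was not shown to differ from its change in the knockout. Intervals reached past 2-fold for 11 members, which limits what this comparison can show.

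**Figure D2:**
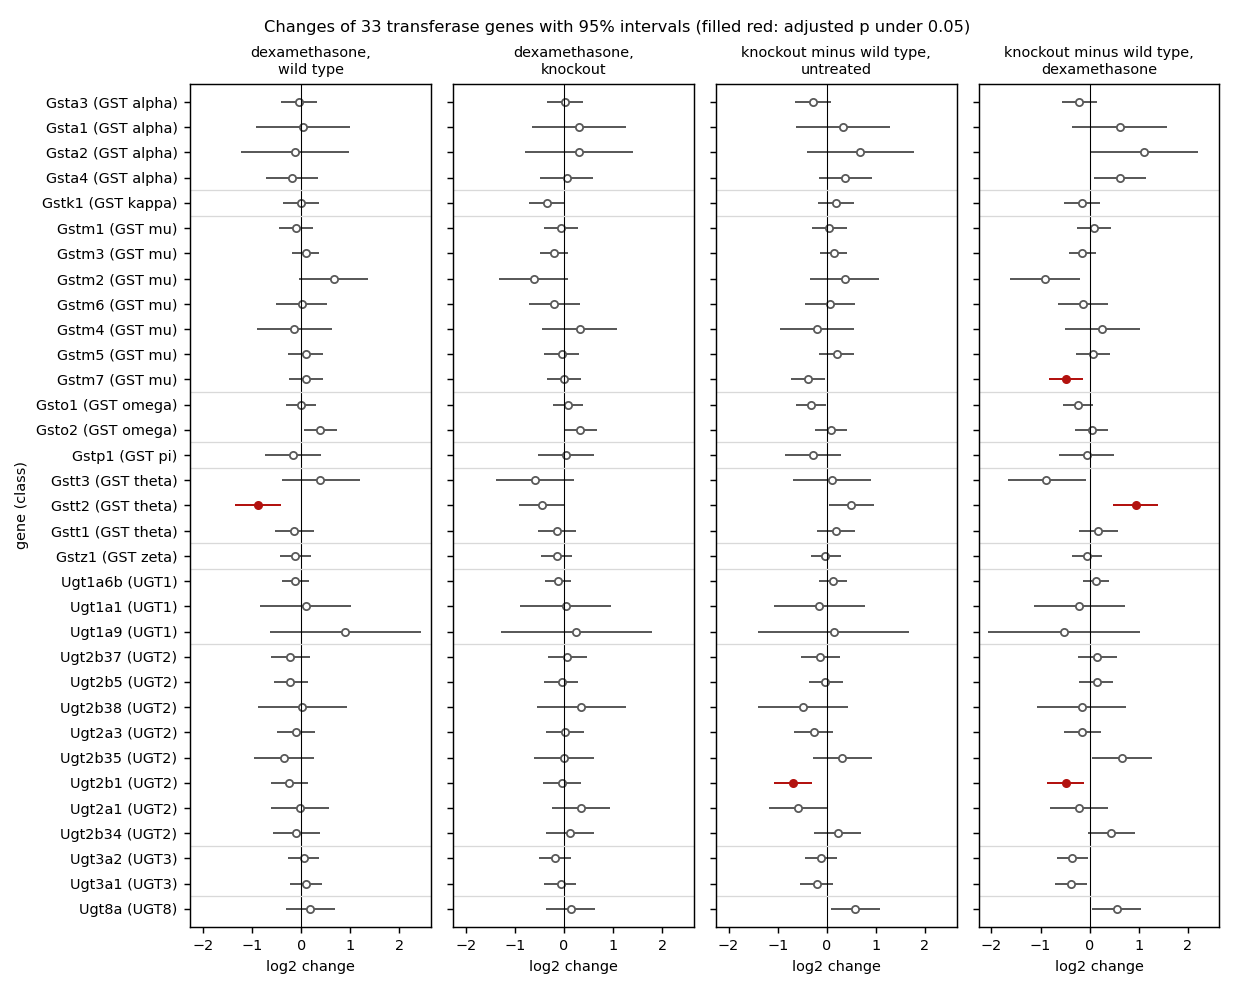
Points give the log2 change of each of the 33 members and lines the 95% interval from the limma fit, in 4 panels for dexamethasone in wild type, dexamethasone in knockout, and knockout minus wild type without and with dexamethasone. Filled red points passed an adjusted p of 0.05 and number 1, 0, 1 and 3 from left to right.

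In the interaction Gstm2 gave the estimate farthest from 0. Its level was 4.56, 4.35, 4.33 and 5.03 on untreated and 5.09, 4.96, 5.45 and 5.41 on treated wild-type arrays. In the knockout it was 4.78, 4.77, 4.08 and 6.11 on untreated and 4.33, 4.17, 4.11 and 4.66 on treated arrays. Untreated knockout array 4 stood above the others of its group. The estimates were 0.66 in wild type (SE 0.32, adjusted p = 0.206), -0.62 in knockout (SE 0.32, adjusted p = 0.36) and -1.28 for the interaction (SE 0.45, adjusted p = 0.143). Without untreated knockout array 3 the interaction was called, while its estimate over all left-out arrays ran from -1.56 to -0.88.

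The comparison of untreated knockout with untreated wild-type liver asked which transferases depend on the receptor without added hormone. Ugt2b1, a UGT2B enzyme of steroids and phenols, was 1.61-fold lower in the knockout, and it was the only member called. The background was 2.87% of the genes tested (0.78% called lower). Its levels were 4.64, 4.32, 4.14 and 4.36 in wild type and 3.69, 4.00, 3.74 and 3.30 in knockout, without overlap. The difference was -0.69 (SE 0.17, 95% interval -1.05 to -0.33, adjusted p = 0.0435). This call sat at the threshold: it was lost in 13 of the 16 fits that left out 1 array, where the difference stayed between -0.79 and -0.56. It was also lost in 7 of 13 other settings, normexp background correction among them (adjusted p up to 0.144). Another 5 members had an unadjusted p under 0.05, which makes 6 of 33, Ugt8a among them, beside 19.4% of all genes tested. The members thus lay near the background. Of these 5, the estimates were lower in the knockout for Gstm7, Gsto1 and Ugt2a1 and higher for Gstt2 and Ugt8a. Ugt8a was above background on none of the untreated wild-type arrays. It passed the filter only through the knockout groups, so its place in the 6 is not read as support. For 24 of the 33 members the interval lay within the 2-fold bounds.

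Between dexamethasone-treated livers of the 2 genotypes 3 members were called, 1 higher and 2 lower in the knockout. Gstt2 was 1.91-fold higher, Ugt2b1 1.41-fold lower and Gstm7 1.40-fold lower. The background in this comparison was 22.3% of the genes tested, 14.1% called higher and 8.24% called lower, against 9.09% of the members. The median absolute difference was 0.22 over the members and 0.33 over all genes.

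Gstt2 differed by 0.94 (SE 0.21, 95% interval 0.49 to 1.38, adjusted p = 0.00585), and all 4 treated knockout arrays lay above all 4 treated wild-type arrays. Its estimate ran from 0.75 to 1.08 over fits without 1 array, and all 29 alternative settings kept the call. Without treatment the Gstt2 difference had the same sign, at 0.50 (SE 0.21), and was not called (adjusted p = 0.201). Its levels therefore lay in the order treated wild type, untreated wild type, treated knockout and untreated knockout by mean (3.62, 4.5, 4.56 and 5.0), and the middle neighbours overlapped.

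Ugt2b1 was 3.96, 3.97, 4.42 and 4.16 on treated wild-type arrays and 3.35, 3.79, 3.75 and 3.65 on treated knockout arrays. The groups did not overlap, and the difference was -0.49 (SE 0.17, adjusted p = 0.0487). It was no longer called in 12 of 16 fits without 1 array, with estimates from -0.55 to -0.40, and in 5 of 13 other settings. Dexamethasone itself gave Ugt2b1 -0.24 in wild type (SE 0.17, adjusted p = 0.402) and -0.04 in knockout (SE 0.17, adjusted p = 0.933).

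Gstm7, a mu class member, was 0.98, 0.85, 1.14 and 0.75 on treated wild-type arrays and 0.34, 0.20, 0.49 and 0.76 on treated knockout arrays. Treated knockout array 4 reached the lowest wild-type value. The difference was -0.48 (SE 0.15, adjusted p = 0.0348), and it lost its call in 6 of 16 fits without 1 array (estimates -0.58 to -0.40). It also lost it in 3 of 13 other settings, namely normexp background correction, no filter on dim probes and the mean of probes, with estimates up to -0.31 and adjusted p up to 0.28. The second Gstm7 probe on the array gave -0.13 (SE 0.26, adjusted p = 0.77). It did not repeat the call, and with its wider SE the 2 estimates were not shown to differ. Untreated livers gave Gstm7 -0.39 for the chosen probe (SE 0.15, adjusted p = 0.177), and there the groups did not overlap.

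**Figure D3:**
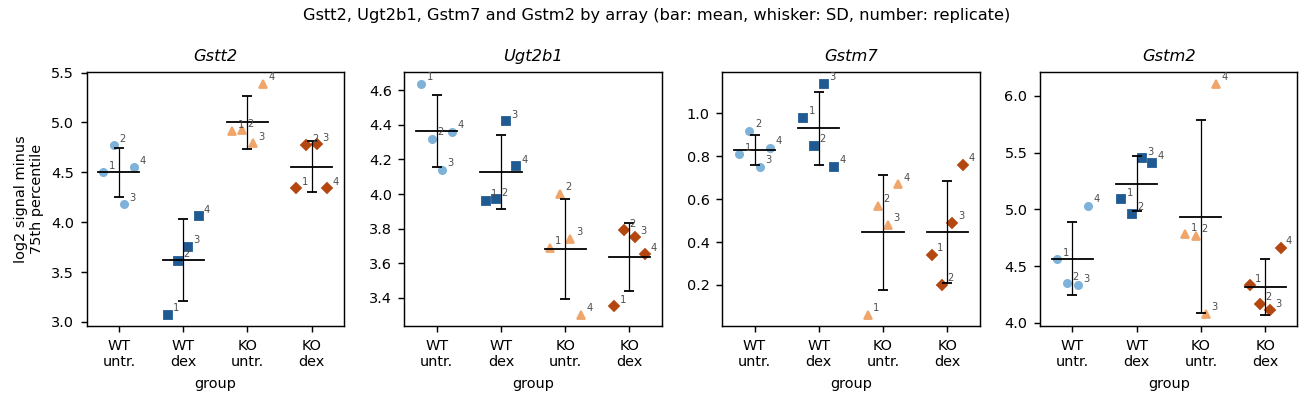
The vertical axis gives the log2 signal minus the array's 75th percentile for Gstt2, Ugt2b1, Gstm7 and Gstm2, with 1 numbered point per array, a bar at the mean and a whisker of 1 SD for each of the 4 groups. Treated wild-type livers are lowest for Gstt2, both knockout groups are low for Ugt2b1 and Gstm7, and untreated knockout array 4 stands above its group for Gstm2.

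Among treated livers, 8 more members had an unadjusted p under 0.05 without passing adjustment. With the 3 called members this makes 11 of 33, Ugt8a among them, beside 35.0% of all genes tested. The members lay near the background here too. Gstm2 measured -0.91 (SE 0.32, adjusted p = 0.0549) and Gstt3 -0.88 (SE 0.36, adjusted p = 0.0975), and for both the groups did not overlap. Gsta4, which conjugates aldehydes from lipid peroxidation, measured 0.62 (SE 0.24, adjusted p = 0.0785), also without overlap. Its probe was spotted 10 times per array and the median SD between those spots was 0.04, beside 0.30 between arrays of a group. Gsta2 measured 1.11 (SE 0.50, adjusted p = 0.132) and Ugt2b35 0.65 (SE 0.27, adjusted p = 0.104). Ugt3a1 and Ugt3a2, which use N-acetylglucosamine and glucose in place of glucuronic acid, measured -0.37 (adjusted p = 0.0751) and -0.35 (adjusted p = 0.0896). A second Ugt3a2 probe measured -0.80 (SE 0.28, adjusted p = 0.053) and was not called either. With the mean of probes Ugt3a2 was called. Ugt8a was the eighth, with signal above background on 2 of 4 treated wild-type arrays. It passed the filter only through the knockout groups, so its place in the 11 is not read as support.

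By class, the alpha GSTs are inducible enzymes that conjugate lipid peroxides and bind bile acids and heme. Dexamethasone estimates for the 4 alpha members ran from -0.19 to 0.03 in wild type and from 0.02 to 0.31 in knockout, with none called. Gsta3 was tightly measured, at 9.0 ± 0.12, 8.95 ± 0.15, 8.72 ± 0.32 and 8.74 ± 0.22 (mean ± SD, n = 4) in untreated wild type, treated wild type, untreated knockout and treated knockout. Its 95% interval for dexamethasone in wild type was -0.39 to 0.29. Gsta1 and Gsta2 spread more widely, with SDs of 1.06 and 1.13 among untreated knockout arrays.

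The Gsta1 and Gsta2 probes were near-identical over 28 bases with 1 mismatch, and the stretches are shown because they limit how far the 2 genes can be read apart (the mismatch is in capitals).
Gsta1 probe: catgtatTcagaaggtattttagatctg
Gsta2 probe: catgtatAcagaaggtattttagatctg
Over the 16 arrays their levels had r 0.96. Both signals may hold transcripts of either gene, so neither difference is assigned to 1 gene with certainty. A similar overlap of 21 bases with 3 mismatches joined the Ugt2b5 probe to the second Ugt2b37 probe (r 0.82).

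The mu GSTs, 7 genes that lie next to each other on chromosome 3 in the RefSeq order (Gstm5, Gstm7, Gstm6, Gstm3, Gstm2, Gstm1 and Gstm4), conjugate epoxides and aromatic halides. Their dexamethasone estimates ran from -0.14 to 0.66 in wild type and from -0.62 to 0.32 in knockout, with none called in either. Gstm1 stayed at 9.78 ± 0.20, 9.67 ± 0.11, 9.83 ± 0.31 and 9.77 ± 0.12 (SD, n = 4) across the same order of groups. Gstm3 measured 0.09 for dexamethasone in wild type (95% interval -0.16 to 0.34). Over the 16 arrays, pairs of genes in this cluster had r from -0.59 (Gstm1 with Gstm4) to 0.72 (Gstm4 with Gstm6). The chosen Gstm1 probe had r 0.01 with the second Gstm1 probe, so its variation between arrays was not repeated there.

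The remaining GST classes held 1 to 3 members each. Gstp1, the pi class enzyme abundant in male mouse liver, was saturated on 4 of 16 arrays and measured -0.17 for dexamethasone in wild type (SE 0.26) and 0.04 in knockout (SE 0.26). The second Gstp1 probe, saturated on no array, measured -0.21 and 0.45 for dexamethasone in wild type and knockout (SE 0.34 each). Between untreated genotypes it measured -0.75 (SE 0.34, adjusted p = 0.257), beside -0.28 for the chosen probe. Gstk1, of mitochondria and peroxisomes, measured 0.00 in wild type (95% interval -0.35 to 0.35) and -0.34 in knockout (adjusted p = 0.306). Gsto1, which reduces glutathione adducts, measured -0.01 in wild type (95% interval -0.29 to 0.28). Gstz1, the maleylacetoacetate isomerase of tyrosine breakdown, measured -0.12 in wild type (SE 0.14) and -0.15 in knockout (SE 0.14). None of these 4 genes was called in any of the 5 comparisons.

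Among the UGT1 genes, which share their last exons and differ in the first, 3 were on the array under member names. Ugt1a1, the bilirubin-conjugating enzyme, measured 0.09 for dexamethasone in wild type, but its 95% interval of -0.81 to 0.99 was wide. Ugt1a6b, named for an enzyme of planar phenols, measured -0.12 in both genotypes (95% interval -0.37 to 0.13 in each). Its chosen probe lies at mm7 chr1:88122519-88122578, past the Ugt1a1 probe at chr1:88115927-88115986, and a second Ugt1a6b probe lies at chr1:88010877-88010936. The second probe measured 0.15 for dexamethasone in wild type and 0.00 in knockout (SE 0.29 each). The 2 Ugt1a6b probes did not vary together (r 0.04 over 16 arrays), and whether the chosen probe reads Ugt1a6b alone was not tested. Ugt1a9 measured 0.90 in wild type with a 95% interval of -0.62 to 2.42, since its SD reached 1.29 in untreated and 1.55 in treated knockout livers.

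The 8 UGT2 genes, which conjugate steroids, bile acids and fatty acids, lie in 1 cluster on chromosome 5. Dexamethasone estimates ran from -0.35 to 0.02 in wild type, 7 of 8 below 0, and from -0.05 to 0.35 in knockout, 5 of 8 above 0. The interaction estimates were all above 0, from 0.12 to 0.37, beside 18 of 33 above 0 over all members, these 8 among them. Their signs are not separate observations, as pairs of the 8 had r from -0.33 (Ugt2b1 with Ugt2b34) to 0.87 (Ugt2b37 with Ugt2b5). Untreated knockout array 1 enters each estimate. It was low for Ugt2a1, Ugt2b34 and Ugt2b38, with a median deviation of -0.45 over the UGT2 genes, and its part in the shared sign was not tested. None of the 8 was called in these 3 comparisons, and the smallest adjusted p for the interaction belonged to Ugt2b37 (0.29, SE 0.25, adjusted p = 0.669). Ugt2b37 levels were 6.95, 7.06, 7.04 and 6.83 on untreated and 6.53, 6.63, 6.78 and 7.06 on treated wild-type arrays, which overlap. Within the cluster Ugt2b1 differed between genotypes and its neighbours Ugt2b34 and Ugt2b35 had estimates of the opposite sign, at 0.22 and 0.31 untreated and 0.44 and 0.65 with dexamethasone, none of them called.

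Variation between arrays of 1 group was largest in the untreated knockout livers. The median SD of the 33 members was 0.17 in untreated wild type, 0.22 in treated wild type, 0.32 in untreated knockout and 0.22 in treated knockout. SDs above 0.5 were found for 12 members in untreated knockout livers, and for 4, 2 and 4 members in the other groups in the same order. Untreated knockout array 1 was the lowest of its group for 25 of 33 members, and array 4 the highest for 22. The median deviation of the members from their own means was -0.39 on array 1 and 0.22 on array 4.

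This spread did not run one way for every gene. Gstt3 was 4.44, 5.30, 5.34 and 6.88 on the 4 untreated knockout arrays, and Gsta1 was 3.99, 5.38, 5.35 and 6.59. Gstp1 ran in the reverse order, at 10.56, 10.07, 9.65 and 8.91. In untreated wild-type livers Gstt3 stayed between 5.35 and 5.44. Ugt2b38 was 4.22 on untreated knockout array 1 and 6.25 to 6.60 on the others. Array 1 had a low signal percentile (308.7), while that of array 4, at the other end for Gstt3, Gsta1 and Gstp1, was 587.8. The part of the percentile in these values was not tested.

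**Figure D4:**
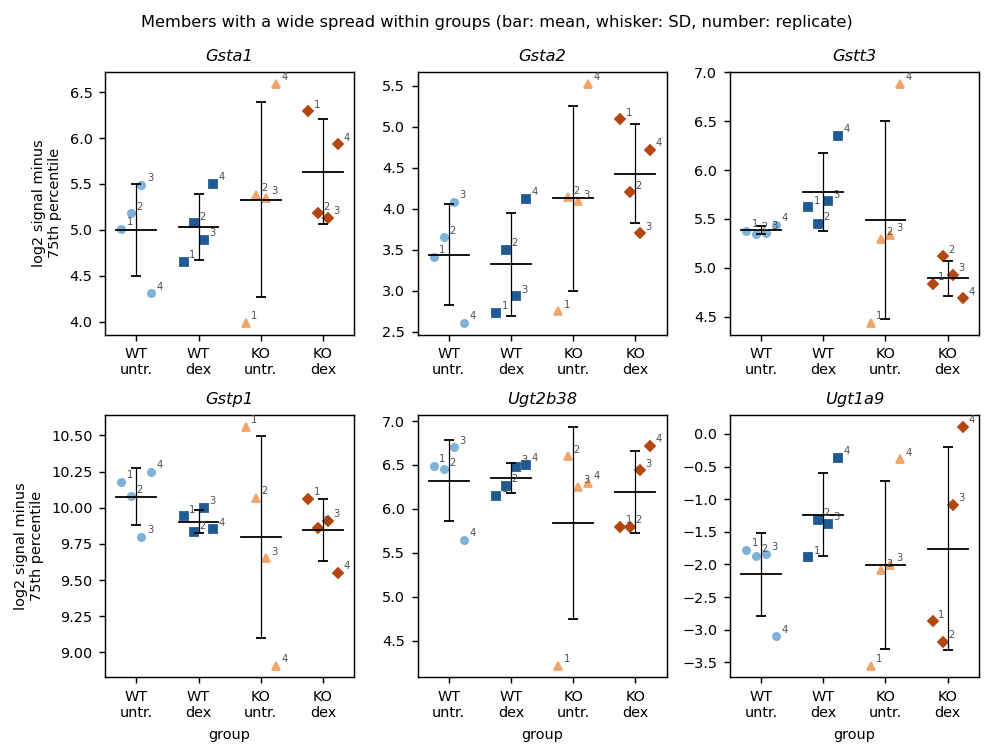
The vertical axis gives the log2 signal minus the array's 75th percentile for Gsta1, Gsta2, Gstt3, Gstp1, Ugt2b38 and Ugt1a9, with 1 numbered point per array, a bar at the mean and a whisker of 1 SD. In untreated knockout livers arrays 1 and 4 lie at the ends of the range for 5 of these genes, with Gstp1 in the reverse order, and Ugt2b38 is low on array 1.

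Without untreated wild-type array 4 and untreated knockout array 1, the treated-genotype comparison called 9 members in place of 3. Gsta4, Gstm2, Gstt3, Ugt2b34, Ugt2b35 and Ugt3a1 joined Gstt2, Gstm7 and Ugt2b1. Neither array belongs to the groups of that comparison, so they enter it through the pooled spread. Dexamethasone in wild type then called Gstt2, Gsto2 and Ugt2b35, and Ugt2b1 lost its call in untreated livers. Over all genes 32.3% were called between treated genotypes in that setting and 18.2% for dexamethasone in wild type.

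Pairs of members from the same class had a median r of 0.41 over the 16 arrays (63 pairs), and pairs from different classes 0.23 (465 pairs). These pairs share arrays and, in part, probe sequence, and are given as a description. The highest within-class values were Gsta1 with Gsta2 (0.96), Gsta2 with Gsta4 (0.90) and Ugt3a1 with Ugt3a2 (0.90).

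The genes that supply glutathione and those that supply UDP-glucuronic acid were followed on lists beside the transferases. Of 20 tested genes of glutathione supply and use, 1 rose and 3 fell with dexamethasone in wild type (median -0.17, beside -0.03 for all genes), and none was called in knockout. Over all genes 12% were called in wild type (6.83% lower) and 3.6% in knockout. Gss, glutathione synthetase, fell by 0.60 (SE 0.13, adjusted p = 0.00785), and Gclm, the modifier subunit of glutamate-cysteine ligase, fell by 0.62 (SE 0.19, adjusted p = 0.047). Anpep, a peptidase of the glutathione cycle, was the other gene that fell, by 0.58 (SE 0.15, adjusted p = 0.0222). Gpx3, the secreted glutathione peroxidase, rose by 1.35 (SE 0.29, adjusted p = 0.00864). The Gclm and Anpep calls were lost in 12 and 5 of 16 fits without 1 array.

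Gss was the only gene of this list called in the interaction (0.92, SE 0.18, adjusted p = 0.0117). Its levels spanned 3.27 to 3.54 and 2.55 to 3.03 on untreated and treated wild-type arrays, and 3.25 to 3.56 and 3.64 to 3.91 on untreated and treated knockout arrays. Treated wild-type livers lay below all other arrays. The interaction lost its call under normexp background correction (0.76, adjusted p = 0.176).

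Between treated genotypes 3 of the 20 were higher and 1 lower in the knockout, beside 14.1% and 8.24% of all genes. Gclc, the catalytic subunit of the rate-limiting ligase, was higher by 1.16 (SE 0.31, adjusted p = 0.016), Gss by 0.94 (SE 0.13, adjusted p = 0.000232) and Anpep by 0.65 (SE 0.15, adjusted p = 0.00785). Glrx, glutaredoxin, was lower by 1.53 on the log2 scale (-1.53, SE 0.26, adjusted p = 0.00118). It was lower in untreated knockout livers too (-1.25, SE 0.26, adjusted p = 0.0229), the only gene of the list called there, and that call was lost in 3 of 16 fits without 1 array and 3 of 13 other settings. The Gclc call was lost without treated wild-type array 2 (adjusted p = 0.0516).

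The membrane-bound GSTs and related prostaglandin and leukotriene synthases gave no call in any comparison, with 6 of 7 listed genes tested. Of 11 genes around the supply of UDP-glucuronic acid, none was called for dexamethasone in either genotype, in the interaction or between untreated genotypes. Over all genes the shares called there were 12% in wild type, 3.6% in knockout, 4.54% and 2.87%. Between treated genotypes 1 of the 11 was called, beside 14.1% of all genes called higher. Slc35d2, a Golgi transporter of nucleotide sugars, was higher in treated knockout than treated wild-type livers by 1.76 (SE 0.32, adjusted p = 0.00155), at 2.18 to 3.42 against 0.74 to 1.62.

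Among 5 tested transporters that export conjugates, Abcc4, a basolateral pump, was higher in knockout livers by 1.53 without treatment (SE 0.39, adjusted p = 0.049) and by 1.67 with it (SE 0.39, adjusted p = 0.00742). The untreated call held in 3 of 16 fits without 1 array, and the treated call in all 16. Abcc2, the canalicular pump for glutathione and glucuronide conjugates, was lower by 0.44 in treated knockout livers (-0.44, SE 0.13, adjusted p = 0.0264), a call lost in 4 of 16 such fits. Between untreated genotypes 1 of the 5 was thus called, beside 2.87% of all genes. Between treated genotypes 1 was called higher and 1 lower, beside 14.1% and 8.24% of all genes.

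On the list for NRF2, the factor of the antioxidant response, 21 genes were tested. The list holds Keap1 and the factor's own gene Nfe2l2 beside targets, and it shares Gclc and Gclm with the glutathione list. With dexamethasone 1 rose and 2 fell in wild type, and none was called in knockout. The shares over all genes were 12% in wild type and 3.6% in knockout. Cbr3, a carbonyl reductase, rose by 1.45 (SE 0.27, adjusted p = 0.00335), while Gclm and Keap1 (-0.39, SE 0.12, adjusted p = 0.0402) fell. The Keap1 call was lost in 8 of 16 fits without 1 array and 5 of 13 other settings. Between treated genotypes 4 were higher in the knockout and none lower. Over all genes 22.3% were called in this comparison, 14.1% higher and 8.24% lower, so the count lay near the background. They were Gclc, the factor's own gene Nfe2l2 (0.98, SE 0.20, adjusted p = 0.00384), Hmox1 (0.82, SE 0.26, adjusted p = 0.0331) and Tkt (0.66, SE 0.17, adjusted p = 0.0123). Hmox1 lost its call in 5 of 16 fits without 1 array and 2 of 13 other settings, and Tkt in 1 of 13. The list's median was 0.26, beside 0.09 for all genes.

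Regulators of transferase genes formed a list of 11 tested genes. With dexamethasone in wild type 1 rose and 2 fell, beside 12% of all genes called (6.83% lower). Between treated genotypes 2 were called higher and 2 lower in the knockout, beside 14.1% and 8.24% of all genes. In wild type dexamethasone raised Hnf4a, a hepatocyte nuclear receptor (0.59, SE 0.17, adjusted p = 0.0357), and lowered Nr1i3, the constitutive androstane receptor (-0.94, SE 0.27, adjusted p = 0.0315), and Ppara, the fatty acid receptor (-0.88, SE 0.20, adjusted p = 0.0101). The calls for Hnf4a and Nr1i3 were each lost in some fits without 1 array, 7 and 6 of 16. In treated knockout livers Hnf4a was lower than in treated wild type by 1.14 (-1.14, SE 0.17, adjusted p = 0.000429), at 3.37 to 3.45 against 4.42 to 4.80, and Ahr, the aryl hydrocarbon receptor, was lower as well (-0.99, SE 0.25, adjusted p = 0.0116). Nfe2l2 and Ppara (0.58, SE 0.20, adjusted p = 0.0462) were higher, and the Ppara call held in 4 of 16 fits without 1 array.

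**Figure D5:**
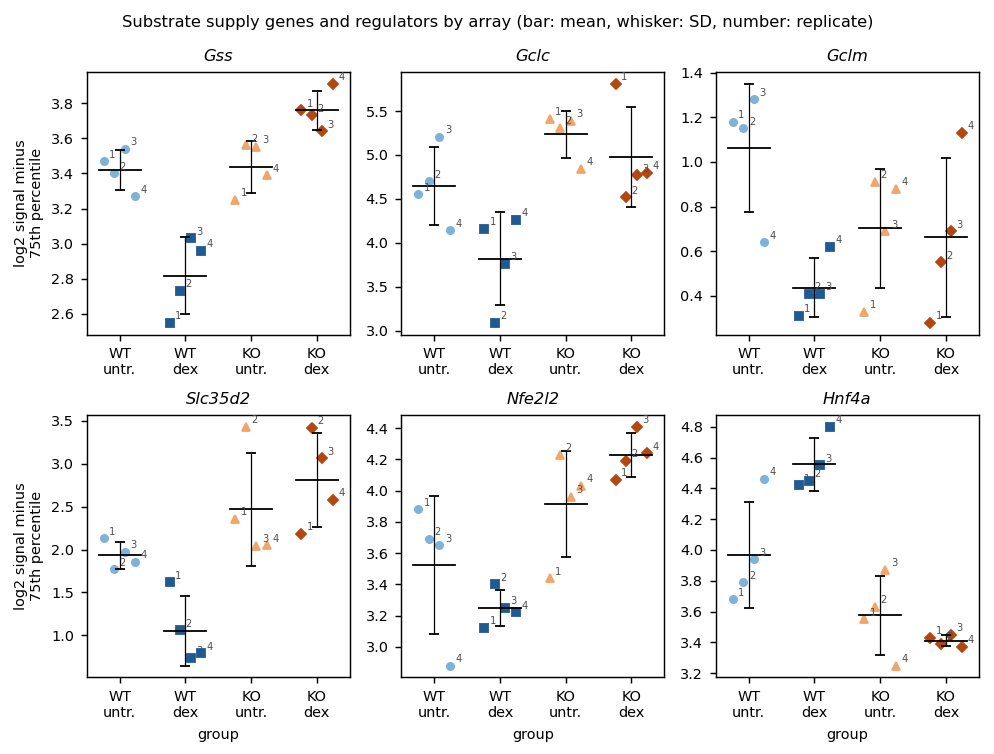
The vertical axis gives the log2 signal minus the array's 75th percentile for Gss, Gclc, Gclm, Slc35d2, Nfe2l2 and Hnf4a, with 1 numbered point per array, a bar at the mean and a whisker of 1 SD. Treated wild-type livers are lowest for Gss and Slc35d2 and, by mean, highest for Hnf4a, and treated knockout livers lie at 3.37 to 3.45 for Hnf4a.

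Zonation matters for these enzymes because pericentral hepatocytes carry much of the xenobiotic metabolism. Of 10 pericentral genes 1 was called higher and 4 lower in treated knockout against treated wild-type livers, and of 10 periportal genes 2 higher and 3 lower. Over all genes 14.1% were called higher and 8.24% lower in this comparison. Cyp27a1, a sterol hydroxylase on the pericentral list, was lower by 1.62 (-1.62, SE 0.36, adjusted p = 0.0056), and Sds, the periportal serine dehydratase, by 1.68 (-1.68, SE 0.36, adjusted p = 0.00425). The 2 periportal genes called higher were Cdh1 (1.69, adjusted p = 0.000731) and Igfals (0.81, adjusted p = 0.0354). The Igfals call held in 11 of 16 fits without 1 array. Cdh1 also fell with dexamethasone in wild type (-0.96, adjusted p = 0.0324) and was called in the interaction (1.44, adjusted p = 0.047). These Cdh1 calls held in 11 and 3 of 16 such fits. Lgr5, a pericentral Wnt receptor gene, fell with dexamethasone by 2.22 in wild type (adjusted p = 0.00163) and by 1.54 in knockout (adjusted p = 0.0292). The knockout call was lost in 4 of 16 fits without 1 array and 3 of 13 other settings (adjusted p up to 0.139). Lgr5 was also the pericentral gene called higher in treated knockout than in treated wild-type livers (1.37, adjusted p = 0.0138). Axin2, also on the pericentral list, was lower there (-0.99, adjusted p = 0.00427). It fell with dexamethasone in knockout (-1.09, adjusted p = 0.0114) and was called in the interaction (-1.18, adjusted p = 0.0348). Each of these Axin2 calls was lost under normexp background correction, and the interaction call held in 5 of 16 fits without 1 array. Over all genes 12% were called for dexamethasone in wild type, 3.6% in knockout and 4.54% in the interaction.

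Some markers of other cells were called for dexamethasone in both genotypes, beside 12% of all genes in wild type and 3.6% in knockout. Of 5 B cell markers 3 fell in wild type and 3 in knockout, and the summed level of the list was -0.38 to -0.13 untreated and -1.71 to -1.25 treated in wild type, and -0.09 to 1.25 and -1.23 to -0.70 in knockout. In treated wild-type livers Ms4a1 and Fcmr were above background on no array. The falls of Ms4a1 and Fcmr lost their calls under normexp background correction in both genotypes. Of 7 T and NK cell markers 1 fell in each genotype, Cd3g in wild type and Cd3e in knockout. The Cd3g call held in 12 of 16 fits without 1 array and was lost under normexp background correction (-0.36) and quantile normalization. The bile duct marker Sox9 rose in wild type by 1.36 (adjusted p = 0.0237), a call lost in 5 of 16 fits without 1 array. No Kupffer cell or stellate cell marker was called in any comparison (7 tested for each). Lyve1, of sinusoidal endothelium, rose by 2.41 in wild type (adjusted p = 0.000682) and by 2.58 in knockout (adjusted p = 0.00134). Kdr, also an endothelial marker, fell in wild type (-1.13, adjusted p = 0.00879) and in knockout (-1.03, adjusted p = 0.0326). The Kdr call in knockout held in 12 of 16 fits without 1 array and in 10 of 13 other settings. Between treated genotypes the bile duct marker Krt7 (-0.88, adjusted p = 0.0225) and the T cell marker Cd3e (-0.69, adjusted p = 0.0016) were lower in the knockout, and the B cell marker Cd79a was higher (1.06, adjusted p = 0.0472). The Krt7 and Cd79a calls were lost in 3 and 11 of 16 fits without 1 array. Cd3e was also called in the interaction (-1.11, adjusted p = 0.00374). The part of these cells in the values of Gstt2 and the other members was not tested.

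Promoter sequences were read from RefSeq, build GRCm38.p6, as the 250 bases before each annotated start, and 29 of the 33 members had an entry (37 starts). Gstt2, Gsta4, Ugt1a6b and Ugt3a2 had none. On both strands 3 motifs were searched, and in the promoters shown no match of 1 motif overlaps that of another: the palindromic glucocorticoid response element, the NRF2 antioxidant response element core TGACNNNGC, and the HNF1 half-site GTTAAT. The glucocorticoid element was in 0 of 29 members and in 0.44% of all 27025 genes with a promoter. The NRF2 core was in 3 of 29 members (Gsta3, Gstm5 and Gstm7) and in 11.5% of all genes, and the HNF1 half-site in 5 of 29 (Gsta3, Ugt1a1, Ugt1a9, Ugt2a3 and Ugt3a1) and in 7.49% of all genes. GC content was 30.4% to 41.6% in the 8 UGT2 promoters and 42.0% to 63.6% in those of 17 GST members. A match here is a description of letters and not a binding site.

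The 250 bases of Ugt2b1, the member called in both genotype comparisons, and of Gsta3, the only member with an NRF2 core and an HNF1 half-site, are shown with matches in capitals. Ugt2b1 lies at chr5:86926504-86926753 on the minus strand and Gsta3 at chr1:21240335-21240584 on the plus strand.
Ugt2b1 promoter: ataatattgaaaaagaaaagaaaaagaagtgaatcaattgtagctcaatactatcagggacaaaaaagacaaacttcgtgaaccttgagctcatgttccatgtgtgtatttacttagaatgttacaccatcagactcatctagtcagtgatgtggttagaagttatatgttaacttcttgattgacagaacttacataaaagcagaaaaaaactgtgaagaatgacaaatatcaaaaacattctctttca
Gsta3 promoter: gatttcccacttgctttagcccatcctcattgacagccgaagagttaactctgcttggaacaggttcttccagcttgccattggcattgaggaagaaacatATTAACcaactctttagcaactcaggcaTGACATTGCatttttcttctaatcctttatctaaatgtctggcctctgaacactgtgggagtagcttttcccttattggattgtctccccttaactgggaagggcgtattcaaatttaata
In Gsta3 the HNF1 match starts 149 bases before the start and the NRF2 core 121 bases before it. In Gstm7, which has 2 annotated starts, the NRF2 core lies 129 bases before the inner one and after the outer one.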

How the data were processed

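The authors deposited 1 scanner file per array, made with Agilent Feature Extraction (version 9.5 in the submitters' processing notes). Per the file headers its processed, mean and background signals are intensity values. Spot flags (above background, saturated, outlying) have the unit other, per the file headers. The authors' series table repeats the processed signal as intensity (largest difference 0).

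Control spots were left out, flagged outlying spots set to missing, spots of 1 probe averaged, and log2 signals centred on the array's 75th percentile. Probes above background on at least 3 of 4 arrays of a group were kept (26794 of 41174), with the brightest probe per gene name (18598 genes). Limma 3.58.1 (R 4.3.3) fitted 4 group means to 16 arrays (12 residual degrees of freedom), and tests were two-sided. A call means p under 0.05 after Benjamini-Hochberg adjustment over the genes tested. The script was tested on simulated data. Intervals are 95%. Figures used matplotlib 3.10.9. The text names every called member, the brightest in a class with none called, and up to 3 called genes per list and comparison; further members and the fourth called gene of a list were described after their values were seen. The members and lists were chosen with earlier results of these data known. Alternatives were other background corrections, normalizations, filters, probe rules, variance models, array weights, a replicate block, only the groups compared, and arrays left out.

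The number of arrays limits the precision. Replicate numbers were not taken to pair samples. All arrays were scanned on 1 day.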

Additional observations from a re-analysis of the deposited data

Results flagged for a closer look

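In 7 of 132 groups of 4 arrays, 1 array lay far from the other 3 for a member, by Dixon's test at 95%, which chance gives in about 1 in 20 groups. Untreated knockout array 1 was low for 4 members: Ugt2a1 at 1.59 (others 2.91 to 3.04), Ugt2b34 at 1.75 (2.61 to 2.75), Ugt2b38 at 4.22 (6.25 to 6.60) and Ugt3a1 at 4.46 (4.87 to 4.91). Untreated wild-type array 4 was low for Ugt1a1 at 0.59 (others 1.83 to 1.97) and Ugt1a9 at -3.10 (-1.87 to -1.78). Treated knockout array 1 was high for Gstm1 at 9.94 (others 9.69 to 9.73). The first of these arrays had a 75th percentile of 308.7 and the second of 401.3, the lowest of the 16, and the part of this in the values was not tested.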

How the results depend on the processing

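Over 29 settings and 33 members, 4785 values were recomputed. None of the called values changed sign, while 242 of the uncalled ones did. The main fit had 5 called results, and over the 29 settings 47 calls were lost and 37 gained. Leaving out 1 array gave 0 to 2 members called for dexamethasone in wild type, 0 in knockout, 0 to 1 in the interaction, 0 to 1 between untreated genotypes and 1 to 7 between treated genotypes. Array weights called 2, 1, 1, 1 and 10 members in the same order, and leaving out untreated wild-type array 4 and knockout array 1 together called 3, 0, 0, 0 and 9. With only the groups compared, 7 members were called between treated genotypes and 0 between untreated ones, and with no filter on dim probes 1 and 0. Ugt2b1, the call between untreated genotypes, was also lost (0 members) under normexp background correction, quantile normalization and a percentile over bright probes. Residuals of same-numbered arrays correlated between -0.188 and 0.348 over 24 pairs, with 10 above 0.1. An array correlated best with its own number in 24 of 48 cases. Each case was a choice among the 4 arrays of another group, where chance gives about 1 in 4. This is a hint from the data and not the design, and the main fit does not use it. The replicate block gave 0 members between untreated genotypes, and between treated ones 3, Gstm2 in place of Ugt2b1. It moved the number of genes called from 2235 to 2192, 669 to 813, 845 to 1065, 533 to 782 and 4153 to 4178. Over all 18598 genes, settings other than leaving out 1 array called 1206 to 5069, 54 to 2135, 89 to 2985, 76 to 2176 and 2375 to 6764, with the lowest counts under normexp, except the 76 with only the groups compared. Leaving out 1 array gave 1223 to 3296, 314 to 939, 499 to 1487, 158 to 650 and 2940 to 5580. The cause of each change was not tested. Saturation of Gstp1 on 4 arrays and background-level signal of Ugt8a limit those genes.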
